A study of Mus musculus with 2 samples.

Results

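The distal microRNA (miRNA) cluster of the imprinted Dlk1-Dio3 region, which runs from Mir379 past Mir410 to Mir3072, was examined in the neural tube of newborn mice. Its members were the miRNA genes that lie within chr12:109709060-109747960 (mm10, 38.9 kb). Of the 1973 miRNA genes in the count tables, 1894 could be placed by position, and 38 met this rule. Of these 38 rows, 34 belong to genes on the plus strand. The other 4 (Mir299b, Gm25750, Gm25252 and Gm24321) are annotated on the minus strand directly over the plus-strand genes Mir299a, Mir380, Mir376a and Mir409, and were read on their opposite strand as those genes. Small RNA libraries, of RNA below 30 bases, came from 1 group of 2 littermates, strain B6NCrl, at postnatal day 0. Each library was made from 1 single neural tube, of pup 1 or pup 2, born to the same dam. Sex was not recorded, no treatment or allele was named, and with 1 group no comparison between conditions existed. Values therefore describe this tissue and the difference between 2 pups. In such bulk tissue, fewer cells of a type and less RNA per cell cannot be told apart.

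The cluster is one of the largest groups of miRNA genes in placental mammals. Its miRNAs are expressed from the maternal chromosome only, and they are cut from long noncoding transcripts, of which Mirg is the annotated host at the distal end. In neurons, transcription of the cluster rises with activity through the factor Mef2, and several of its miRNAs act in dendrite growth and at synapses. Mice that lack the cluster adapt poorly to the change of energy supply at birth. A miRNA finds its targets mainly by its seed, bases 2 to 8 of the mature strand, so the seeds show which members could share targets.

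The mature sequences of the 5 most abundant members, of Mir379, Mir1193, Mir381 and Mir300, and of Mir376c are shown because the levels and the shared seeds described below turn on them. They come from RefSeq (build GRCm38.p6), run 5′ to 3′, and carry the seed in capitals. All are encoded on the plus strand of chromosome 12. Of the 38 members, 37 had a mature sequence in this table, with 69 arms in all (1 arm for each of Mir487b, Mir539, Mir376c, Mir485 and Mir453), and counts were made per precursor gene, so the 5p and 3p arms of a gene were not told apart.
miR-487b-5p: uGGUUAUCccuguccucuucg
miR-382-5p: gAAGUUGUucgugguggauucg
miR-382-3p: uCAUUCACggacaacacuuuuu
miR-369-5p: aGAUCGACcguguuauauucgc
miR-369-3p: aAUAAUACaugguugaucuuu
miR-376a-5p: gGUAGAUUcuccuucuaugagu
miR-376a-3p: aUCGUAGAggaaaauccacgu
miR-411-5p: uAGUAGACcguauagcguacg
miR-411-3p: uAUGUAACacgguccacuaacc
miR-379-5p: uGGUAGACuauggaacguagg
miR-379-3p: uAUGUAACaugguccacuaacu
miR-1193-5p: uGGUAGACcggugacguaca
miR-381-3p: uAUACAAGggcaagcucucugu
miR-300-3p: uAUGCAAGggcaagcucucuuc
miR-376c-5p: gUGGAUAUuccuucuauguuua

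The 69 arms in the table carried 64 different seeds, and 5 seeds were shared by more than 1 member gene. For members with only 1 arm listed, any other arm was not searched, so shared seeds may have been missed. The seed AUGUAAC stands in miR-379-3p and miR-411-3p, whose 22 bases differ at 2 positions outside the seed (U10C and U22C, counted from the 5′ end, the base of miR-379-3p first). The seed GGUAGAC stands in miR-379-5p and miR-1193-5p, which differ at 10 of 20 compared bases, all beyond the seed. The other shared seeds were GGUUGUC (miR-494-5p and miR-410-5p), GGUUGCC (miR-453 and miR-496a-5p) and GGUUGAC (miR-1197-5p and miR-758-5p). In contrast, miR-381-3p and miR-300-3p agree at 19 of 22 bases but differ within the seed (A4G), so they are not a seed pair. Of the 64 seeds, 12 also occurred in arms of genes that were not read as members. Some of these genes lie in the same interval: miR-299a-3p shares its seed with miR-299b-3p, and miR-376c-5p with miR-376b-5p. Outside the interval, miR-329-3p shares its seed with miR-362-3p of the X-linked miR-532/362 cluster, and miR-410-3p shares its seed with arms of 4 miR-344 genes.

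The libraries held 3216453 (pup 1) and 3660693 (pup 2) counts in miRNA genes on their own strand. Levels are given in CPM, counts per 1000000 of these totals, and a single count is worth 0.311 CPM in the first library (pup 1) and 0.273 CPM in the second. Reads below 30 bases span a whole mature miRNA, so counts were not divided by gene length, and CPM compares sequenced reads of different miRNAs, not molecules in the tissue. Reads that fitted several places in the genome made up 35.7% and 35.4% of all reads and were not counted to any gene. Of the marker genes listed for neural tube and spinal cord, 10 of 13 measured were detected, with Mir10b and Mir137 among them, while Mir124a-2, Mir124a-3 and Mir9-2 had at most 10 counts in a pup. Markers of other tissues were also present: endothelial Mir126a stood at 27838 and 26007 CPM, the 4 mesenchymal genes summed to 10653 and 11353 CPM, and the 3 skeletal muscle genes summed to 70.6 and 105.4 CPM with Mir1a-1 at 0. Since reads that fit several gene copies were not counted, low values of the numbered copies of Mir1a, Mir124a and Mir9 do not show absence. The 3 sensory neuron genes (Mir182, Mir183 and Mir96) summed to 3233 and 5392 CPM, the 2 oligodendrocyte genes to 1789 and 2157 CPM, the 3 measured blood and microglia genes to 455 and 546 CPM, and hepatic Mir122 stood at 104 and 64.2 CPM. The part of these tissues in the levels of the cluster was not tested.

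The cluster held 294230 counts in pup 1 and 328948 in pup 2, which is 9.15% and 8.99% of the own-strand total (mean 9.07% ± 0.114, SD, n = 2). With the counts of the 4 minus-strand rows also added to the total, the share was 9.04% (exact 95% binomial interval 9.01 to 9.07%) in pup 1 and 8.88% (8.85 to 8.91%) in pup 2. These intervals cover counting error only, since reads without molecular identifiers are not independent molecules. At least 10 counts in both pups, the rule for detection, were found for 34 of the 38 members (89.5%), against 356 of all 1973 genes (18.04%). Means of at least 1000 CPM were found for 14 members (36.8%), against 98 of all genes (4.97%), and 14 members stood among the 100 most abundant miRNA genes.

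The 4 members that were not detected lie among detected ones. Mir654 and Mir453 had 0 counts in both pups, which allows up to 0.933 CPM in pup 1 and 0.820 CPM in pup 2. Gm27379 had 0 and 1 counts, and Mir1197 had 6 and 11. Mir654 is separated by 414 bases from Mir376c (516 CPM in the mean) and followed by Mir376a (6466 CPM).

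Mir487b (chr12:109727333-109727414, plus strand) stood far above the rest of the cluster. It had 119545 counts (37167 CPM) in pup 1 and 128186 counts (35017 CPM) in pup 2, a mean of 36092 CPM ± 1520 (SD, n = 2), and ranked 5 among all miRNA genes. It held 40.6% of the cluster's counts in pup 1 and 39.0% in pup 2. Mir382 (chr12:109733771-109733846), the second member, had 22791 counts (7086 CPM) and 27772 counts (7587 CPM). Both pups of Mir487b lay above both pups of Mir382, by 4.92-fold in the means.

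The next 4 members were close to each other. Mir369 (chr12:109743418-109743496), whose miRNA has been reported to act on messages with AU-rich elements, had 22603 counts (7027 CPM) and 23423 counts (6399 CPM). Mir376a (chr12:109723781-109723848), whose precursor is a known target of A-to-I editing, had 21226 counts (6599 CPM) and 23179 counts (6332 CPM) on the row of Gm25252. Mir411 (chr12:109710175-109710256) had 19548 counts (6078 CPM) and 22113 counts (6041 CPM), and Mir381 (chr12:109726822-109726896) had 14306 counts (4448 CPM) and 16837 counts (4599 CPM). The pup values of Mir369 and Mir376a overlapped, while those of Mir376a lay above those of Mir411 and those of Mir411 above those of Mir381. The 5 most abundant members, Mir487b to Mir411, held 69.9% of the cluster in pup 1 and 68.3% in pup 2.

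Mir541 (chr12:109742409-109742498) had 10982 counts (3414 CPM) in pup 1 and 16621 counts (4540 CPM) in pup 2, the widest relative gap between the pups among the 12 most abundant members. Mir379 (chr12:109709060-109709125), the first gene of the cluster, had 11451 counts (3560 CPM) and 12609 counts (3444 CPM). Mir409 (chr12:109743158-109743236), read on the row of Gm24321, had 9986 counts (3105 CPM) and 12818 counts (3502 CPM). The pup values of Mir541 and Mir379 overlapped, as did those of Mir379 and Mir409, and those of Mir381 overlapped those of Mir541. The order was therefore not settled between Mir381 and Mir541 or among Mir541, Mir379 and Mir409.
Mir154 (chr12:109738433-109738498) had 7078 counts (2201 CPM) and 8642 counts (2361 CPM), Mir323 (chr12:109712508-109712593) had 5900 counts (1834 CPM) and 6479 counts (1770 CPM), and Mir300 (chr12:109724313-109724391) had 5016 counts (1559 CPM) and 5442 counts (1487 CPM). These 3 followed in this order in both pups without overlap, and the 12 most abundant members together held 91.9% and 92.5% of the cluster.

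**Figure D1:**
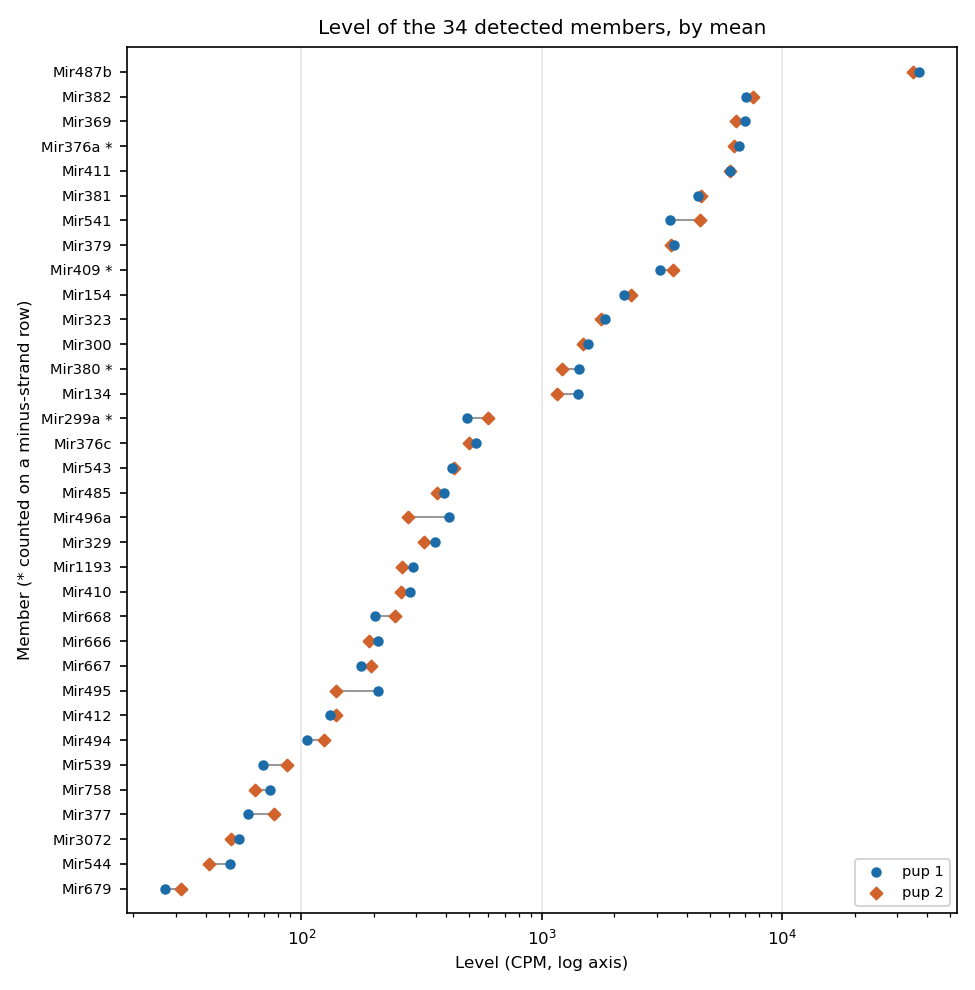
Level in CPM (log axis) of the 34 detected members in pup 1 (circles) and pup 2 (diamonds), ordered by the mean, with an asterisk at genes counted on a minus-strand row. Mir487b stands apart at 37167 and 35017 CPM, and many neighbours in the order below it overlap.

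The other 22 detected members ranged from 1322 CPM (Mir380) to 29.4 CPM (Mir679) in the mean. Mir134, whose miRNA limits dendritic spine size through Limk1, had 4558 counts (1417 CPM) in pup 1 and 4254 counts (1162 CPM) in pup 2. Mir485, which is known to act on the synaptic vesicle protein Sv2a, had 1255 counts (390.2 CPM) and 1346 counts (368 CPM). Mir329, which like Mir134 has been tied to activity-dependent dendrite growth, had 1159 counts (360 CPM) and 1187 counts (324 CPM). These genes, picked for their reported function, stood well below Mir487b in both pups, as did every other member. Mir134 had values close to those of Mir380. From the highest to the lowest detected member the means spanned 1229-fold. Of the 33 pairs of successive ranks, 19 were separate, in that both pups of the higher gene exceeded both pups of the next, and 14 overlapped.

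The 4 genes counted on minus-strand rows supplied 12.7% of the cluster's counts in pup 1 and 13.0% in pup 2. These 4 rows carried no more than 1 own-strand count per pup, and on the 34 plus-strand rows the opposite-strand counts were 0 in both pups. Mir380 had 4603 counts (1431 CPM) in pup 1 and 4443 counts (1214 CPM) in pup 2 on the row of Gm25750, and Mir299a had 1571 counts (488 CPM) and 2181 counts (596 CPM) on the row of Mir299b. The precursors of Mir299a (chr12:109710638-109710700, plus strand, 63 bases) and Mir299b (chr12:109710645-109710693, minus strand, 49 bases) show why a strand had to be chosen. The stretch of Mir299a in capitals is the reverse complement of the whole Mir299b precursor (RefSeq, GRCm38.p6), and because a hairpin is nearly its own reverse complement the sequences look much alike.
Mir299a: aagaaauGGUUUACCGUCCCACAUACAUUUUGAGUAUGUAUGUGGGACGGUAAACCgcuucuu
Mir299b: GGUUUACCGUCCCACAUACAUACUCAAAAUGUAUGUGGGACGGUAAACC
The arms of Mir299a reach beyond the Mir299b row by 1 base (5p) and 4 bases (3p). How the counting treated reads that overhang a row is not given in the sources used here. Mir376b and Gm44322, also annotated in the interval in GENCODE M21, matched no row of the counts. They are therefore not part of the cluster's total or share.

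Levels varied along the cluster with runs of low genes and wide single steps. From Mir758 to Mir376c, 10 successive detected members had means of 29.4 to 516 CPM, while the next 4 detected, Mir376a, Mir300, Mir381 and Mir487b, had means of 1523 to 36092 CPM. In genome order, the first 13 members (Mir379 to Mir543) held 16.2% ± 0.0959 of the cluster's counts (SD, n = 2), the next 13 (Mir495 to Mir134) 64.2% ± 0.883 and the last 12 (Mir668 to Mir3072) 19.6% ± 0.979. Without Mir487b the shares were 26.9%, 40.6% and 32.5%, so the middle stretch was still the highest, by less. The medians of the detected members were 385 CPM, 1290 CPM and 344 CPM in this order. Over the 34 detected members, the Spearman rho between genome order and mean CPM was -0.034, and the Pearson r between the log2 levels of neighbouring genes was 0.12 over 33 neighbour pairs. These are descriptions across genes of the same libraries, not across replicates.

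**Figure D2:**
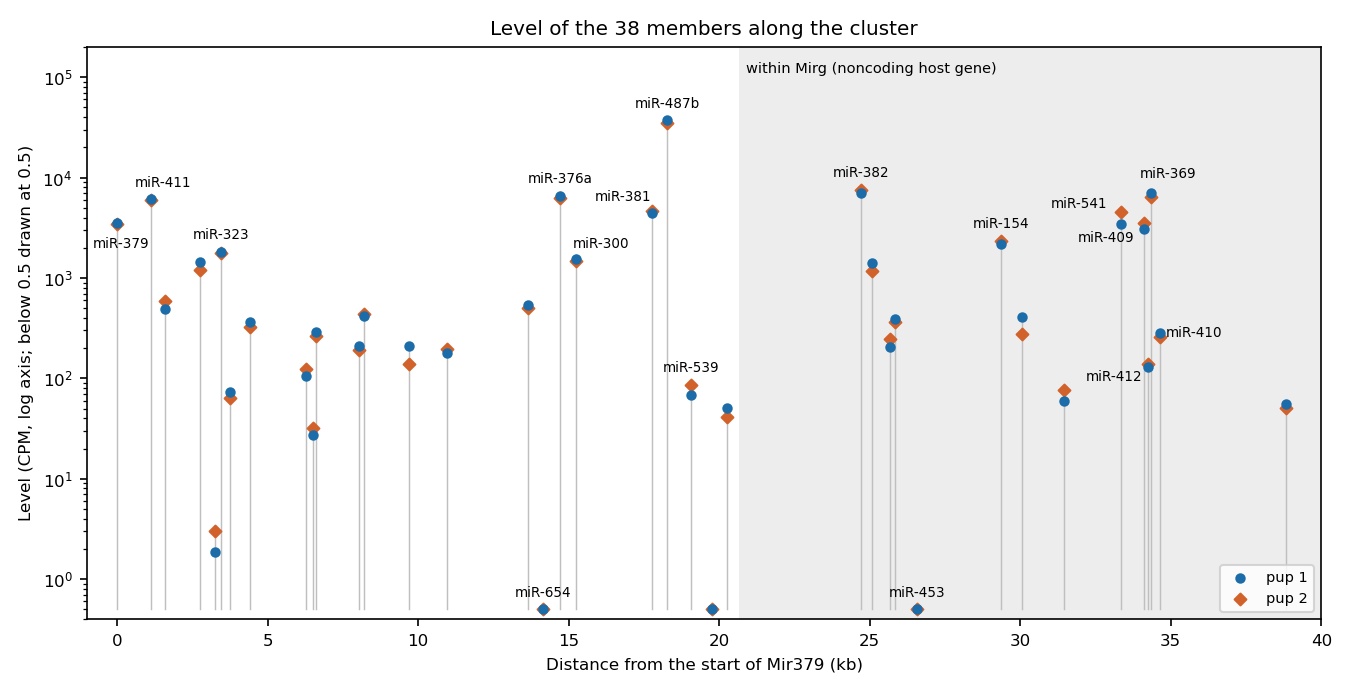
Level in CPM (log axis) of all 38 members against the distance of each gene from the start of Mir379 in kb, for pup 1 (circles) and pup 2 (diamonds), with values under 0.5 CPM drawn at 0.5. A run of low genes precedes the high stretch from Mir376a to Mir487b. The step down to Mir539 is the widest between neighbouring detected members, and the shaded part lies within the host gene Mirg.

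Close neighbours often differed widely. The median gap between neighbouring detected members was 659 bases, and their means differed by 5.03-fold in the median, against 6.32-fold over all 561 pairs of detected members. Of the 33 neighbour pairs, 9 differed at least 10-fold and 7 by less than 2-fold. The widest step was from Mir487b to Mir539, which is separated from Mir487b by 714 bases and had 222 counts (69.0 CPM) in pup 1 and 318 counts (86.9 CPM) in pup 2, 463-fold below in the means. A second run of steps lies at the distal end, where Mir409, Mir412, Mir369 and Mir410 follow each other with gaps of 52, 49 and 218 bases. Here Mir412 had 422 counts (131 CPM) and 510 counts (139 CPM), between Mir409 at 3303 CPM and Mir369 at 6713 CPM in the means. Mir410 had 906 counts (282 CPM) and 950 counts (260 CPM), 24.8-fold below Mir369 in the means. Each of these steps far exceeded the difference between the pups.

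The precursors of Mir369 and Mir410 are shown as neighbours of unlike level, with both mature arms in capitals (RefSeq, GRCm38.p6). Mir369 lies at chr12:109743418-109743496 and Mir410 at chr12:109743715-109743795, both on the plus strand.
Mir369: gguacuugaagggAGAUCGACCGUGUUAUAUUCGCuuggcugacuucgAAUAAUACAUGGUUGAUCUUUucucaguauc
Mir410: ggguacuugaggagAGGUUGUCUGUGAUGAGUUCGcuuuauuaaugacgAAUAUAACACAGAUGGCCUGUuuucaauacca
They are 79 and 81 bases long with a GC content of 41.8% and 40.7%, and their computed folding energies were -33.1 and -34.7 kcal/mol (RNAfold). In this pair, the 24.8-fold step came with little difference in these 3 properties. Other wide steps varied in GC content. It was 53.75% and 41.8% for Mir412 and Mir369 (49.6-fold), and 47.6% and 33.8% for Mir487b and Mir539 (463-fold). For Mir377 and Mir541 (58.2-fold) it was 41.2% and 43.3%, and for Mir323 and Mir758 (26.2-fold) 52.3% and 51.9%. Whether any of these properties bears on the steps was not tested.

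The host gene Mirg (chr12:109729764-109749460, plus strand) contains 14 members, from Mir382 to Mir3072. In the GENCODE annotation 4 of these lie wholly in an exon, 5 cross an exon edge and 5 lie in an intron. The other 24 members lie upstream, inside no other annotated plus-strand gene. The 14 members within Mirg held 28.2% of the cluster in pup 1 and 30.0% in pup 2. The median of the detected members was 379 CPM within Mirg and 428 CPM upstream.

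For each gene the counts of both pups were set against their own-strand totals by an exact binomial test (two-sided), with Benjamini-Hochberg adjustment over all 417 miRNA genes with at least 10 counts summed. The test compares 2 libraries by counting error alone and says nothing on conditions. Of the 35 members tested, 9 were called higher in pup 2 (25.7%) and 11 lower (31.4%), against 25.9% and 16.1% of all genes tested. A call is easier at high counts, and 33 of the 35 members had at least 100 counts in both pups, against 263 of the 417 genes. The share of calls at matched counts was not computed. With TMM scaling the members split into 7 higher and 15 lower, and all genes into 95 higher and 81 lower, because TMM moved every log2 ratio by -0.042. The members' median log2 ratio (pup 2 over pup 1) was -0.05, beside 0.04 for all genes tested. The cluster as a whole had a log2 ratio of -0.03.

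Differences between the pups were small in size. A difference of at least 1.5-fold was seen for 1 of 35 members in the direction of pup 2 (2.86%), against 11.8% of all genes tested, and for 0 members in the other direction, against 7.91%. The 1 member was Mir1197, with 6 and 11 counts, which was not called (adjusted p = 0.63, exact binomial test). Genes with few counts fill much of the background, so the shares were also set side by side for genes that had 100 counts or more in both libraries. Of these, 24 of 33 members (72.7%) and 191 of all 263 genes (72.6%) lay within 1.2-fold. Above this depth the share of members was thus close to that of all genes.

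**Figure D3:**
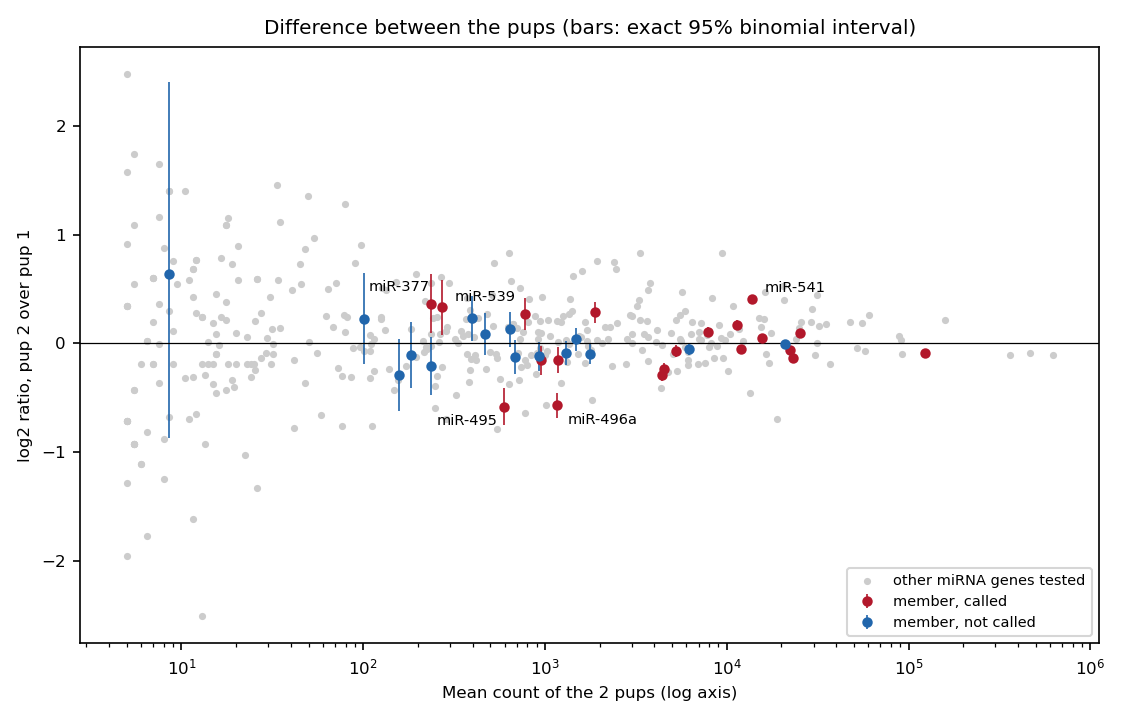
The log2 ratio of pup 2 over pup 1 against the mean count (log axis) for the 35 tested members, with exact 95% binomial intervals as bars called members in red and other members in blue, over the other miRNA genes tested in grey. Mir541 lies highest among members of high count, and Mir495 and Mir496a lie lowest.

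With the own-strand totals, no member met the rule set for naming single differences, a call with at least 1.5-fold and 100 counts in each pup, and the members named here were chosen after their values were seen. Mir495 had 673 counts (209 CPM) in pup 1 and 512 counts (139.9 CPM) in pup 2, a log2 ratio of -0.58 (exact 95% interval -0.75 to -0.41, adjusted p = 3.1e-11, exact binomial test). Mir496a had 1323 counts (411 CPM) and 1014 counts (277 CPM), a log2 ratio of -0.57 (-0.69 to -0.45, adjusted p = 1.5e-20, exact binomial test). Both were thus lower in pup 2 by just under 1.5-fold. They met the rule with TMM or DESeq2 scaling (log2 ratio -0.62 for Mir495 and -0.61 for Mir496a) and without Mir10b in the total (-0.60 and -0.59). Mir541, with the values given above, had a log2 ratio of 0.41 (0.38 to 0.45, adjusted p = 3.1e-119, exact binomial test), the largest difference among members past 1000 CPM. Mir487b was called lower in pup 2 at a log2 ratio of only -0.09 (-0.10 to -0.07, adjusted p = 1.8e-48, exact binomial test), since its high counts make small differences pass the test.

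Calls of opposite direction stood side by side in the cluster. Mir541, Mir409 and Mir154 were called higher in pup 2, while Mir496a between Mir154 and Mir541 was called lower, as was Mir369, which follows Mir409 after the uncalled Mir412. These 5 calls were the same under TMM and DESeq2 scaling. Over the 34 detected members, the Pearson r between the log2 ratios of neighbouring genes was -0.24 (33 neighbour pairs, a description across genes of the same libraries). Mir381 was called higher (log2 ratio 0.05) and Mir300, with its similar 3p arm, was called lower (-0.07), both by under 1.1-fold. The call of Mir381 was lost with TMM or DESeq2 scaling (log2 ratio 0.0066 in both) and without Mir10b in the total (0.024), and that of Mir300 with scaling to the cluster total (-0.043) or with a minimum of 1 count summed. Mir411 was not called (log2 ratio -0.01), and Mir379, its seed partner, was called lower at -0.05. This contrast depended on the scaling: with TMM or DESeq2 scaling Mir411 was called lower too (-0.051), as it was without Mir10b in the total (-0.033), and with the cluster total Mir379 was not called (-0.022).

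Some counts are uncertain because of shared sequence. Members read through a minus-strand row were not compared with the gene annotated over them. Apart from this, a stretch of 18 bases or more was shared with another annotated miRNA gene by 4 members. These were Mir411 and Mir758 with each other, and Mir376c and Mir487b with Mir376b. The precursors of Mir299a and Mir299b printed above also share such a stretch on each side of the hairpin, so the count of Mir299a is uncertain too. In Mir376c the shared 31 bases cover 18 of the 22 bases of miR-376c-5p, and this arm differs from miR-376b-5p at 1 base (G19U, the base of miR-376b-5p first). In Mir487b the shared stretch is the last 20 of 82 bases and holds none of miR-487b-5p, the only arm of this gene that was checked. The stretch lies on the 3′ side of the precursor, and its overlap with any 3p arm was not checked. The count of Mir487b is therefore not shown to be free of shared sequence. In Mir411 it holds 12 of the 22 bases of the 3p arm and none of the 5p arm.

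The proximal miRNA genes of the same imprinted region, listed from Mir770 to Mir370, gave a smaller share. The 17 measured genes of that list held 2.86% of the own-strand counts in pup 1 and 2.59% in pup 2, so the distal cluster lay 3.19-fold and 3.47-fold above them in the sum over its 38 genes. Per gene the order was the other way round, with a median of 1181 CPM for the 15 detected proximal genes and 403 CPM for the 34 detected distal members. The highest 2, Mir127 and Mir434, which lie antisense to the retrotransposon-like gene Rtl1, reached 10836 CPM ± 1027 and 3930 CPM ± 869 (SD, n = 2). Of the 16 proximal genes tested, 1 was called higher and 4 lower in pup 2, with a median log2 ratio of -0.04. The proximal and distal sums also follow unlike strand rules. Opposite-strand counts were used for the 4 minus-strand distal rows, while the minus-strand proximal gene Mir3071 was read on its own strand only. Mir136, also on the proximal list, was not measured and adds nothing to that sum. Without its minus-strand rows the distal cluster held 7.90% in the mean. No test of the difference between the proximal and distal genes was made, since the pups form 1 group.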

How the data were processed

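Each library's deposited table holds raw counts for miRNA genes in 3 columns (both strands together, own strand, opposite strand). Per the deposited text file the authors used mm10 and GENCODE M4. Which aligner and counter they ran is not given in the sources used here. Read classes that name no gene stayed out of totals and tests; unmapped reads were 10.8% and 11.0% of all reads, reads outside miRNA genes 1.89% and 1.69%. Own-strand counts were used, and opposite-strand counts for the 4 minus-strand members; these are in no total. Symbols and positions came from GENCODE M21 (same build), where 1894 of 1973 Ensembl identifiers matched. Sequences came from RefSeq.

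The design has 1 group, so edgeR's quasi-likelihood test had nothing to compare. Log2 ratios had 0.5 added to each count, calls used an adjusted p below 0.05, and the binomial script was tested on simulated counts. The pups are littermates, and p-values measure counting error between 2 libraries. The members, lists, rules and tests were chosen with earlier results of these data known. Genes given in full were the 12 highest members, those on minus-strand rows and those called with at least 1.5-fold and 100 counts; members at 0 are named. Alternatives were TMM (edgeR) and DESeq2 scaling, other totals, count minimums, pseudocounts and strands, members left out, and each pup left out; scaling to the cluster's own total was added after seeing the data. Tests ran in scipy 1.17.1 (Python 3.11.15, with numpy 2.4.6 and pandas 2.3.3), scaling in edgeR 4.0.16 and DESeq2 1.42.0 (R 4.3.3), folding in RNAfold 2.7.2 and figures in matplotlib 3.10.9.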

Additional observations from a re-analysis of the deposited data

How the results depend on the processing

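The cluster's share of counts (9.07%) became 8.87% with either-strand counts and 4.59% of all reads. It became 11.07% without Mir10b, the most abundant miRNA gene, and 7.90% without the minus-strand rows. Without the 4 members found to share 18 bases, Mir487b among them, it was 4.79%, with Mir299a kept. All these shifts arose by construction. Without the minus-strand rows Mir487b held 45.7% and the 5 highest members 76.8% of the cluster, and the middle and last stretches 65.5% and 18.3%. Without Mir487b the first, middle and last stretches held 26.9%, 40.6% and 32.5%. Scaling to the cluster's own total gave 10 members called higher and 7 lower, against 9 and 11 as reported. The count of members at least 1.5-fold higher was 0 with 50 counts summed and at 2-fold, and 2 with 1 count summed. The count of members at least 1.5-fold lower rose from 0 to 2 (Mir495 and Mir496a) with TMM, with DESeq2 scaling and without the most abundant gene; each of these moved all ratios down. No called member changed sign under these alternatives. With 2 pups, leaving out either one moves a mean by less than its SD by construction. No paired analysis was possible because the series has 1 group.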

Other observations

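Among 35 members with a precursor in RefSeq, the median GC content was 43.4% (29.1 to 72.3%), against 51.9% over 970 other miRNA precursors, and the median length was 79 bases in both. The stretch UACUUG, seen near the 5′ end of several members and searched on the precursor's own strand only, occurred in 10 of 35 members (28.6%) and in 1.65% of the other precursors. The stretch AGUAUC, near the 3′ end, occurred in 6 members (17.1%) and in 1.55% of the others, and GGUUG in 12 members (34.3%) and in 9.79% of the others. These stretches were chosen after the sequences were seen, members are related in sequence, and a match is a description only. Over the 32 detected members with a precursor sequence, the Spearman rho of the mean CPM was -0.21 with GC content, -0.057 with length and 0.15 with folding energy per base, given as descriptions across genes.

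Uracil was the first base of 30 of the 69 mature arms and adenine of 26, with 9 guanine and 4 cytosine.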
